A study of Homo sapiens with 8 samples.

Results

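Enhancer coactivators are the proteins that sit between sequence-specific factors and the transcription machinery. The 9 genes described here encode such proteins. They were given as a list of gene names and were matched to the count files by their Ensembl identifiers. The rule for choosing them uses no measured value, although the list was drawn up with earlier results of these data known. All 9 were found among the 57773 genes of the files, and all 9 were among the 23474 genes that passed the filter on low counts. They were EP300, CREBBP, KMT2C, KMT2D, KDM6A, MED1, MED12, SMARCA4 and ARID1A. The study asked how the chromatin remodeler CHD7 and the RNA of the endogenous retrovirus HERVH act at enhancers of human embryonic stem cells (hESCs), and the comparison made here was whether the RNA of the coactivator genes changed when CHD7 or HERVH was perturbed.

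Active enhancers carry acetylated H3K27 and monomethylated H3K4. EP300 and CREBBP (p300 and CBP) are the paralogous acetyltransferases that place the first mark, KMT2C and KMT2D are the paralogous methyltransferases that place the second, and KDM6A (UTX), a partner within the KMT2C/KMT2D complex, removes methyl groups from H3K27. MED1 and MED12 are subunits of Mediator, which links enhancer-bound factors to RNA polymerase II. SMARCA4 (BRG1) is the ATPase of the SWI/SNF (BAF) chromatin remodeling complex, and ARID1A is a large subunit of the same complex.

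RNA-seq was carried out on 8 libraries of the hESC line H9, with 2 replicates in each of 4 groups. WT cells carried CHD7-HA and were untreated. CHD7 KO cells were CHD7 -/- and untreated. The study made both an InDel and a stop codon in exon 2 and says that it went on with the stop codon, while the labels of these libraries name no mutation. HERVH KD cells were WT (CHD7-HA) cells that had received LNA-GapmeRs 24 h before harvest. GapmeRs are antisense DNA oligonucleotides with modified ends that direct RNase H to a complementary RNA. Their comparator was untreated WT, as no library of a control GapmeR was analysed here. HERVH KO cells carried a deletion of an HERVH element on Chr2 and were untreated. The study describes 2 independent clones of each KO, but nothing links a clone to a library, so all p-values measure only the spread between these libraries, which may be technical. With 2 libraries against 2, an exact permutation test of a single gene cannot go below p = 0.333, and all tests are from a model fitted across all genes.

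The GapmeRs are printed because they define the HERVH KD group, and because a match within a coactivator gene would bear on its level. The sequences are those listed with the study, 5′ to 3′:
SHHERVH_3: ggaagatttgggacga
SHHERVH_4: attgggacctagctcg
SHHERVH_12: atgtggagtgggtagc
Capitals would mark a run of at least 12 bases complementary to the sense strand of any of the 9 genes, introns included (GRCh37), and none was found, so the oligonucleotides stand in lower case throughout. Among 22744 genes past the filter that could be searched, 1.53% held such a run for SHHERVH_3, 0.602% for SHHERVH_4 and 1.84% for SHHERVH_12. The absence of these letters says nothing about shorter or mismatched pairing.

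Depth ranged from 14802049 counts on genes in HERVH KD replicate 2 to 23156445 in HERVH KO replicate 1, so 3 counts were worth between 0.128 and 0.218 CPM (counts scaled to the TMM-corrected library size). The lowest count of any of the 9 genes was 1080, for MED12 in HERVH KD replicate 2. CHD7 itself, the targeted gene, was at 651 and 650 CPM in WT, 197 and 197 CPM in CHD7 KO, 626 and 514 CPM in HERVH KD, and 711 and 691 CPM in HERVH KO. The 6 hESC markers examined (POU5F1, SOX2, NANOG, LIN28A, DPPA4 and TDGF1) were at 64.4 CPM or more in every library, and their summed level was between 4319 and 5103 CPM. The sum hides differences between the HERVH KD replicates. There POU5F1 was at 829 and 1474 CPM and DPPA4 at 799 and 500 CPM. In WT they were at 1078 and 937 CPM and at 608 and 559 CPM. The 7 germ layer markers (PAX6, SOX1, TBXT, HAND1, SOX17, GATA6 and AFP) were at 3.21 CPM or less. In bulk samples such as these, fewer cells expressing a gene and less RNA per cell cannot be told apart.

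Most of the coactivator genes were highly expressed in WT cells when compared per length (RPKM, here CPM per kb of the union of a gene's exons). SMARCA4 was at 36.2 ± 0.431 RPKM (SD, n = 2), EP300 at 35.5 ± 0.360 RPKM (SD, n = 2) and ARID1A at 29.6 ± 1.85 RPKM (SD, n = 2), above 94.5% or more of all genes tested. KMT2D at 20.7 ± 1.97 RPKM (SD, n = 2), MED1 at 17.5 ± 0.337 RPKM (SD, n = 2) and CREBBP at 15.7 ± 0.740 RPKM (SD, n = 2) formed the middle of the order. MED12 at 5.17 ± 0.380 RPKM (SD, n = 2), KMT2C at 4.54 ± 0.349 RPKM (SD, n = 2) and KDM6A at 4.48 ± 0.0427 RPKM (SD, n = 2) were lowest, near the 62.6 to 65.9 percentile of all genes. The order of KMT2C and KDM6A lay within their spread, and the ranges of MED12 and KMT2C came close without overlapping. The order depends on the length used. Per kb of the longest transcript, SMARCA4 was at 97.5 RPKM, ARID1A at 54.9 RPKM and EP300 at 47.3 RPKM, KMT2C moved up in the order at 14.4 RPKM, and MED12 at 10.4 RPKM and KDM6A at 10.3 RPKM were last.

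Together the 9 genes took 0.276% and 0.291% of the counts on genes in WT, 0.301% and 0.286% in CHD7 KO, 0.324% and 0.243% in HERVH KD, and 0.297% and 0.306% in HERVH KO. The highest and the lowest share thus belonged to the HERVH KD replicates, and the other 6 libraries lay between them.

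**Figure D1:**
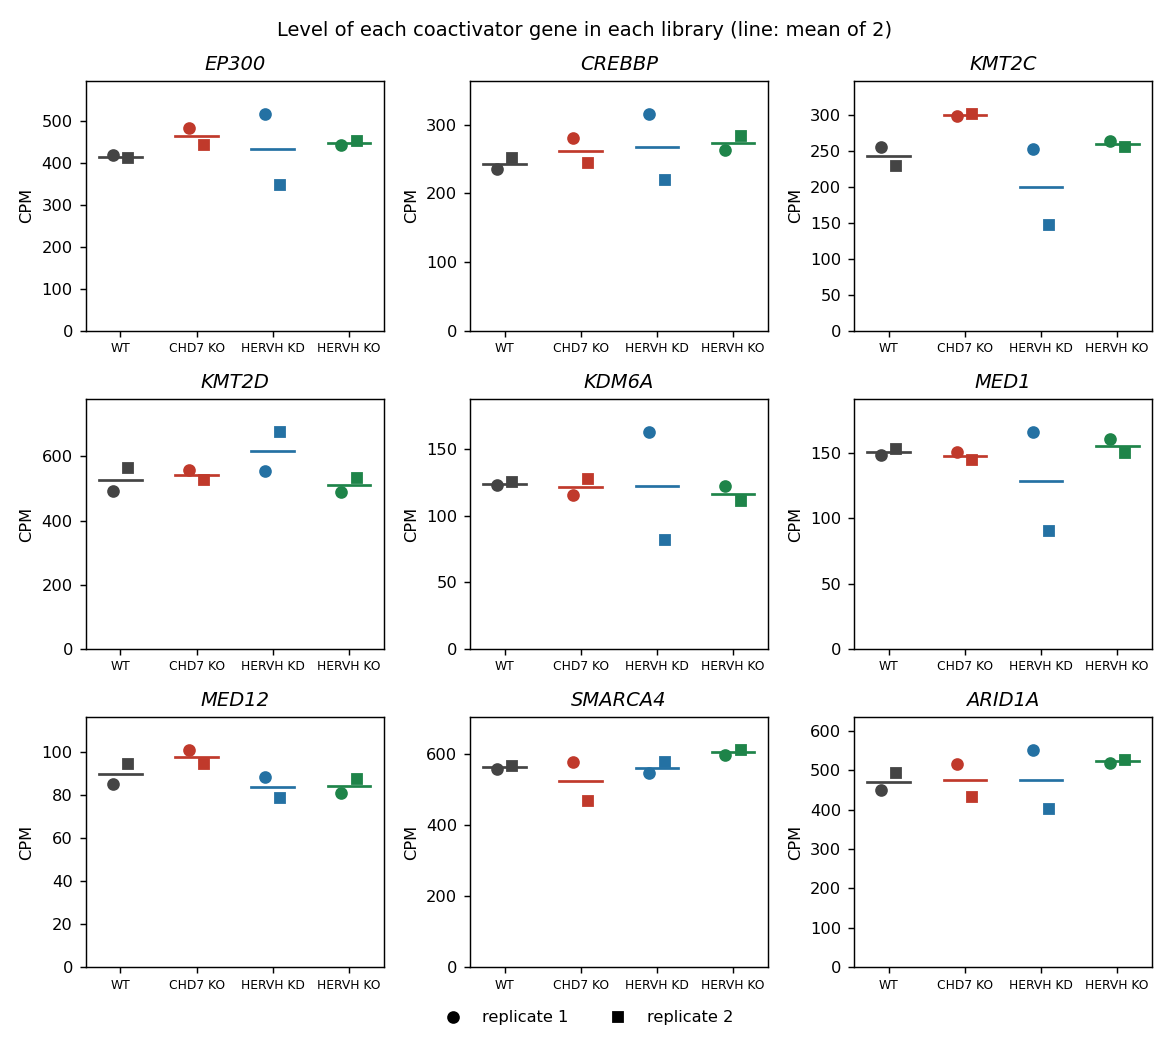
Level of each of the 9 coactivator genes in each library, in CPM (y axis, from 0) by group (x axis). Circles are replicate 1, squares replicate 2, and the line is their mean. The widest gaps between replicates are in HERVH KD, where KDM6A is at 163 and 82.2 CPM, and among the other groups SMARCA4 and ARID1A in CHD7 KO are the furthest apart (579 and 470 CPM, 517 and 432 CPM).

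The acetyltransferase genes come first. EP300 (chromosome 22, 41488596 to 41576081, plus strand, hg19) was at 418 and 412 CPM in WT, 485 and 443 CPM in CHD7 KO, 518 and 347 CPM in HERVH KD, and 443 and 452 CPM in HERVH KO. Both CHD7 KO and both HERVH KO libraries were above both WT libraries, whereas the HERVH KD libraries fell on either side of WT. The log2 fold change against WT was 0.16 (SE 0.17, FDR = 0.858) in CHD7 KO, 0.06 (SE 0.17, FDR = 0.884) in HERVH KD and 0.11 (SE 0.17, FDR = 1) in HERVH KO, by edgeR's quasi-likelihood test with Benjamini-Hochberg adjustment over all genes tested, which gave every FDR below. None passed. CREBBP (chromosome 16, 3775055 to 3930714, minus strand) was at 235 and 251 CPM in WT, 281 and 244 CPM in CHD7 KO, 316 and 220 CPM in HERVH KD, and 264 and 284 CPM in HERVH KO. Only in HERVH KO were both libraries above WT, and there the log2 fold change was 0.17 (SE 0.17, FDR = 1). The ratio of EP300 to CREBBP counts within a library, which is not corrected for length, was between 1.58 and 1.82 over all 8 libraries. It was 1.78 and 1.64 in WT and 1.64 and 1.58 in HERVH KD, where EP300 differed 1.49-fold and CREBBP 1.44-fold between the replicates, so the paralogs were lower together in replicate 2.

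Among the methyltransferase genes, KMT2C (chromosome 7, 151832007 to 152133729, minus strand) had the largest log2 fold changes of the 9, in either direction. Parts of it have near-identical copies elsewhere in the genome, so reads from those parts may not all have been counted. It was at 255 and 229 CPM in WT, 298 and 301 CPM in CHD7 KO, 252 and 147 CPM in HERVH KD, and 263 and 254 CPM in HERVH KO. Both CHD7 KO libraries were above WT, and HERVH KD replicate 2 was below every other library. The log2 fold change was 0.31 in CHD7 KO (SE 0.20, FDR = 0.695) and -0.28 in HERVH KD (SE 0.20, FDR = 0.479), and neither passed. Between HERVH KD and CHD7 KO directly it was -0.59 (SE 0.20, unadjusted p = 0.0120 from the edgeR fit across all genes, FDR = 0.0858), the sole unadjusted p below 0.05 among the 9 genes in 6 comparisons. In that comparison 25.8% of all genes had an unadjusted p below 0.05, and with 1 library left out the KMT2C value ran from -1.09 without HERVH KD replicate 1 to -0.25 without HERVH KD replicate 2. That FDR was 0.0427 after a correction for GC content and 0.00688 without the filter on low counts, and it thus passed 0.05 under those settings and not in the analysis reported. Over all genes, 3732 of 23474 passed with the correction and 3325 of 42395 without the filter, against 2217 of 23474 in the analysis reported.

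KMT2D (chromosome 12, 49412758 to 49454577, minus strand) did not follow KMT2C. It was at 491 and 562 CPM in WT, 556 and 526 CPM in CHD7 KO, 554 and 677 CPM in HERVH KD, and 488 and 533 CPM in HERVH KO. No group stood apart from WT, and the log2 fold change with the largest size, 0.22 in HERVH KD (SE 0.15, FDR = 0.433), did not pass. The ratio of KMT2C to KMT2D counts was 0.520 and 0.407 in WT, 0.536 and 0.573 in CHD7 KO, 0.455 and 0.217 in HERVH KD, and 0.538 and 0.477 in HERVH KO. HERVH KD replicate 2 was the lowest of the 8, while replicate 1 lay between the WT libraries. KMT2C and KMT2D also differ in base composition, with an exon GC content of 39.4% and 57.5%, which bears on the comparison of the HERVH KD replicates below. KDM6A (chromosome X, 44732434 to 44972024, plus strand) was at 123 and 125 CPM in WT, 116 and 127 CPM in CHD7 KO, 163 and 82.2 CPM in HERVH KD, and 122 and 111 CPM in HERVH KO. In HERVH KD its mean of 123 ± 57.3 CPM (SD, n = 2) was close to the WT mean of 124 ± 1.19 CPM (SD, n = 2) while the replicates were 1.99-fold apart. Its log2 fold changes against WT were between -0.09 and -0.02.

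Of the Mediator genes, MED1 was in the middle of the order per exon length and MED12 was among the lowest. MED1 (chromosome 17, 37560538 to 37607525, minus strand), the subunit through which nuclear receptors bind Mediator, was at 149 and 153 CPM in WT, 151 and 144 CPM in CHD7 KO, 166 and 90.1 CPM in HERVH KD, and 161 and 150 CPM in HERVH KO. Apart from HERVH KD replicate 2, every library lay between 144 and 166 CPM. Its log2 fold change was -0.23 in HERVH KD (SE 0.22, FDR = 0.595) and closer to 0 in the KO groups. A lncRNA, ENSG00000266469, overlaps MED1 on the other strand and had 169 to 402 counts, 9.93% to 13.7% of those of MED1. Whether the counting used strand is not given in the sources used here, so the 2 cannot be fully told apart, whereas rows overlapping the other 8 genes held at most 0.620% of the member's counts. MED12 (chromosome X, 70338393 to 70363953, plus strand), part of the kinase module of Mediator, was at 85.0 and 94.3 CPM in WT, 101 and 94.5 CPM in CHD7 KO, 88.3 and 78.7 CPM in HERVH KD, and 80.8 and 87.5 CPM in HERVH KO. Both CHD7 KO libraries were above WT, the lower of them barely, and the log2 fold change was 0.12 (SE 0.15, FDR = 0.882).

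The SWI/SNF genes were among the highest of the 9 per length. SMARCA4 (chromosome 19, 11071608 to 11190102, plus strand) was at 559 and 568 CPM in WT, 579 and 470 CPM in CHD7 KO, 547 and 578 CPM in HERVH KD, and 600 and 613 CPM in HERVH KO. It was among the genes whose HERVH KD replicates were close, and it was the gene with the widest gap in CHD7 KO. The log2 fold changes were -0.10 in CHD7 KO (SE 0.14, FDR = 0.895), 0.00 in HERVH KD (SE 0.14, FDR = 0.996) and 0.11 in HERVH KO (SE 0.14, FDR = 1). ARID1A (chromosome 1, 27019727 to 27108595, plus strand) was at 451 and 492 CPM in WT, 517 and 432 CPM in CHD7 KO, 553 and 401 CPM in HERVH KD, and 518 and 528 CPM in HERVH KO. Its ratio to ARID1B, the paralog that takes its place in other SWI/SNF assemblies, was between 2.19 and 2.39 in all 8 libraries, and in HERVH KD it was 2.23 and 2.32 although ARID1A differed 1.38-fold between the replicates.

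**Figure D2:**
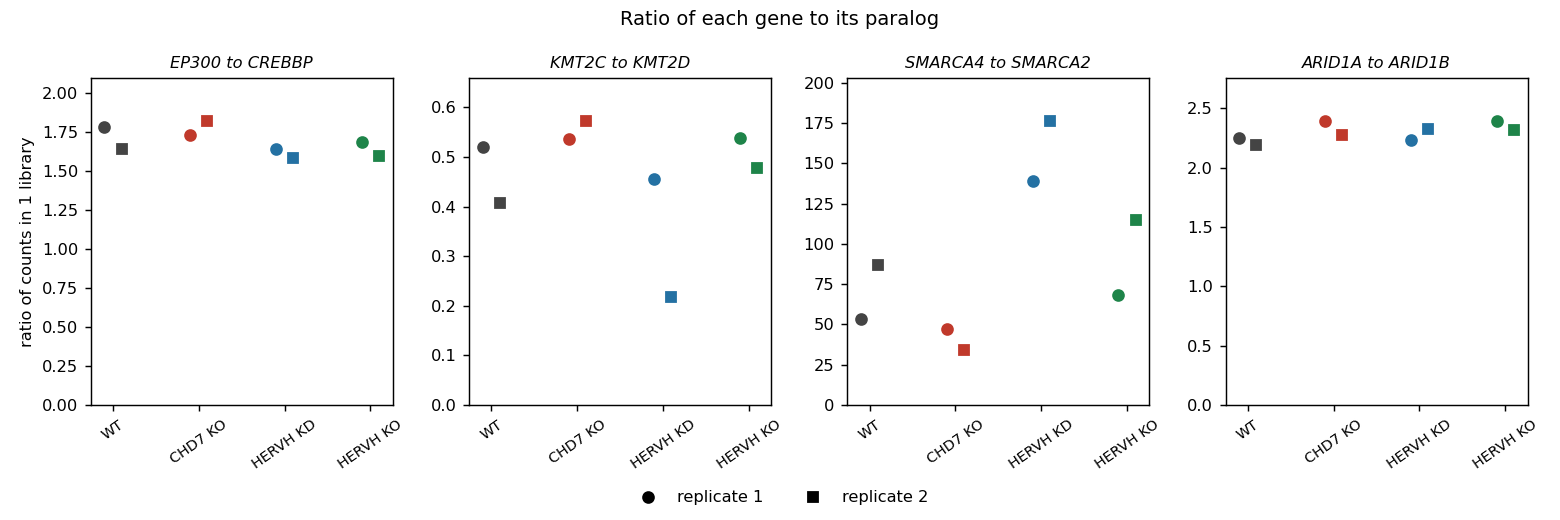
Ratio of counts of a coactivator gene to those of its paralog within a library (y axis, from 0) by group (x axis), with circles for replicate 1 and squares for replicate 2. EP300 to CREBBP (1.58 to 1.82) and ARID1A to ARID1B (2.19 to 2.39) are nearly level, KMT2C to KMT2D is lowest in HERVH KD replicate 2 (0.217), and SMARCA4 to SMARCA2 is highest in the HERVH KD libraries (139 and 176).

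In contrast to SMARCA4, SMARCA2 (BRM), the alternative ATPase of the SWI/SNF complex, was scarce and uneven. It was at 10.5 and 6.55 CPM in WT, 12.3 and 13.7 CPM in CHD7 KO, 3.94 and 3.28 CPM in HERVH KD, and 8.81 and 5.34 CPM in HERVH KO. Both HERVH KD libraries, with 72 and 45 counts, were below all others, and both CHD7 KO libraries were above all others. The log2 fold change in HERVH KD was -1.23 (SE 0.32, FDR = 0.0613) and did not pass 0.05, although it did with DESeq2 (FDR = 0.00866). It was 0.61 in CHD7 KO (SE 0.29, FDR = 0.490), and between 0.30 and 1.02 with 1 library left out. In the direct comparison of HERVH KD with CHD7 KO SMARCA2 was lower by 1.84 on the log2 scale (log2 fold change -1.84, SE 0.32, FDR = 0.00340). The ratio of SMARCA4 to SMARCA2 counts was 53.1 and 86.8 in WT, 46.9 and 34.2 in CHD7 KO, 139 and 176 in HERVH KD, and 68.1 and 115 in HERVH KO.

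The test of all 9 genes in the comparisons with WT was as follows. The study's cutoffs for differentially expressed genes (DEGs) are an FDR below 0.01 and at least 2-fold. By these, 0 of 9 were called in CHD7 KO, 0 of 9 in HERVH KD and 0 of 9 in HERVH KO. The shares of all genes tested that were called were 0.571%, 0.217% and 0.0298%. Only the cutoffs are the study's, since it does not state which edgeR test it used. It reports more DEGs in HERVH KD and HERVH KO than the 51 and 7 genes called here. At the same cutoffs DESeq2 called 373 and 14 genes in these groups. With an FDR below 0.05 and no limit on the fold, the counts were again 0 of 9 in each, beside 1.81% of all genes in CHD7 KO, 2.15% in HERVH KD and 0.0724% in HERVH KO. DESeq2 likewise called 0 of the 9 at an FDR below 0.05 in these 3 comparisons. With background shares this low, counts of 0 among 9 genes do not set the coactivators apart from other genes. At an unadjusted p below 0.05 the edgeR fit also gave 0 of 9 in each, where 10.9% of all genes lay below it in CHD7 KO, 19% in HERVH KD and 2.63% in HERVH KO. The intervals say more. Over the 3 comparisons the 95% intervals of the 9 log2 fold changes had half-widths between 0.30 and 0.51. In CHD7 KO they ran from -0.54 to 0.74, or 0.688-fold to 1.67-fold, in HERVH KD from -0.71 to 0.54, or 0.610-fold to 1.46-fold, and in HERVH KO from -0.60 to 0.54, or 0.660-fold to 1.46-fold. A 2-fold change of any of the 9 genes in either direction lay outside its interval in all 3 comparisons, and changes within the intervals could not be told from no change with 2 libraries a group. The fit takes a common spread for each gene over all groups. The HERVH KD replicates differed more than those of the other groups (below), so the HERVH KD intervals may be too narrow to exclude a 2-fold change.

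**Figure D3:**
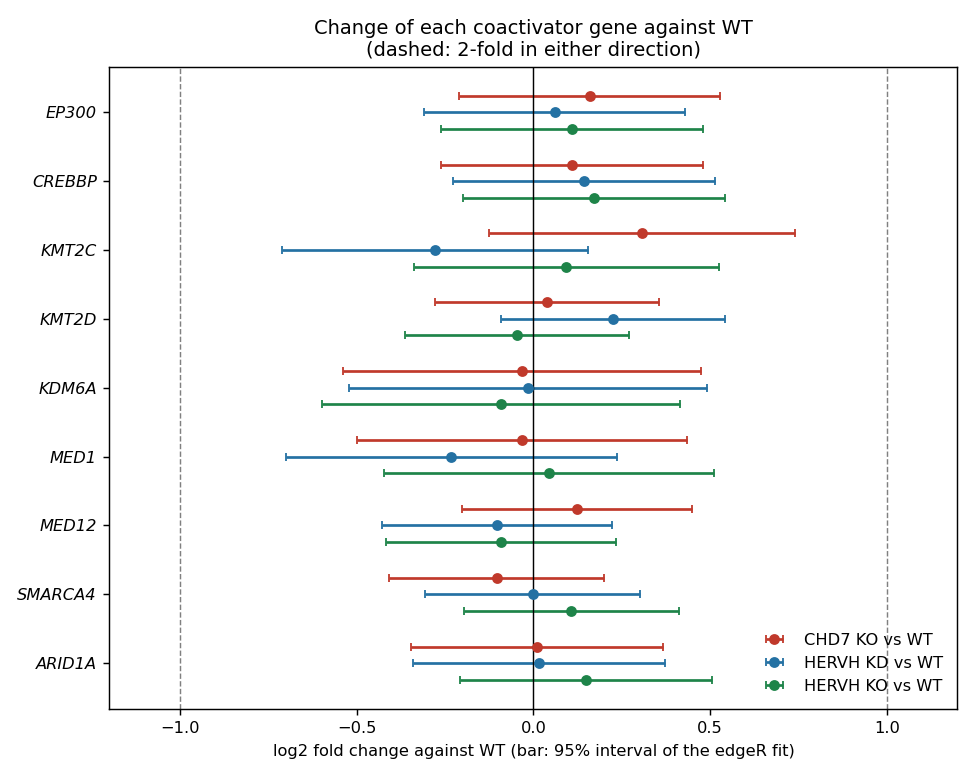
Log2 fold change of each coactivator gene against WT (x axis) with its 95% interval from the edgeR fit (bars), for CHD7 KO, HERVH KD and HERVH KO. All 27 intervals cross 0 and stay within the dashed lines at 2-fold, and KMT2C lies on opposite sides of 0 in CHD7 KO (0.31) and HERVH KD (-0.28). The intervals assume a common spread over the groups, which may be too small for HERVH KD.

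The medians of the 9 log2 fold changes were 0.04 in CHD7 KO, 0.00 in HERVH KD and 0.09 in HERVH KO, beside medians over all genes tested of -0.01, 0.04 and -0.02. With 1 library left out they ran from -0.01 to 0.16 in CHD7 KO, from -0.29 (without HERVH KD replicate 1) to 0.13 (without HERVH KD replicate 2) in HERVH KD and from 0.06 to 0.11 in HERVH KO. In CHD7 KO, 3 of 9 genes (EP300, KMT2C and MED12) had both libraries above both WT libraries and 0 had both below, where the shares of all genes were 21.5% and 22.4%. In HERVH KD, 0 lay above and 0 below, where the shares of all genes were 22.5% and 22.3%. In HERVH KO, 4 of 9 (EP300, CREBBP, SMARCA4 and ARID1A) lay above and 1 (KDM6A) below, where the shares were 17.7% and 20.3%. The WT libraries are common to these comparisons, so the values are not independent of each other. Compared directly, the perturbed groups gave 0 of 9 genes at an FDR below 0.05 in each case, where 1.33% of all genes passed between HERVH KD and HERVH KO, 2.66% between CHD7 KO and HERVH KO and 9.44% between HERVH KD and CHD7 KO. At an unadjusted p below 0.05, the number of the 9 was 0, 0 and 1 in these comparisons, beside 19.1%, 12.2% and 25.8% of all genes, and DESeq2 called 0 at an FDR below 0.05 in each.

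The HERVH KD replicates differed from each other more than those of any other group. The median absolute difference between replicates over the 9 genes was 0.52 on the log2 scale in HERVH KD, 0.10 in WT, 0.13 in CHD7 KO and 0.11 in HERVH KO. Over all genes with a mean log2 CPM above 3 it was 0.35, 0.17, 0.15 and 0.11 in the same order. In HERVH KD, 7 of the 9 genes were lower in replicate 2, KDM6A by 0.99, MED1 by 0.88, KMT2C by 0.78, EP300 by 0.58, CREBBP by 0.52, ARID1A by 0.46 and MED12 by 0.17 on the log2 scale, and SMARCA4 and KMT2D were higher, with differences of 0.08 and 0.29. The order was close to that of the exon GC content, from KDM6A at 36.8%, KMT2C at 39.4% and MED1 at 44.6% to SMARCA4 at 57.0% and KMT2D at 57.5%, with a Spearman rank correlation of 0.917 over the 9 genes. All genes showed such a gradient in HERVH KD (Spearman 0.738 over 10742 genes). It was weaker but present in WT (0.469) and HERVH KO (0.388), and in CHD7 KO it ran the other way (-0.148). Over the 9 genes the correlation was 0.667 in WT, 0.833 in HERVH KO and -0.717 in CHD7 KO. When all genes were split into 5 bins of equal size by GC content, the HERVH KD medians from the lowest to the highest bin were -0.37, -0.20, 0.00, 0.29 and 0.65. In WT they ran from -0.14 in the lowest bin to 0.20 in the highest. Within HERVH KD, each of the 9 genes was below the median of its own GC bin, by 0.22 for SMARCA4 to 0.82 for CREBBP. They are long transcripts, and set against genes of the same GC bin with a transcript of at least 5000 bases the 9 differences were still lower, by 0.17 to 0.77. The 10 most abundant genes of a library took 8.87% of the counts in HERVH KD replicate 2, against 4.09% to 5.08% in the other libraries. The part of these properties in the coactivator values was not tested.

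**Figure D4:**
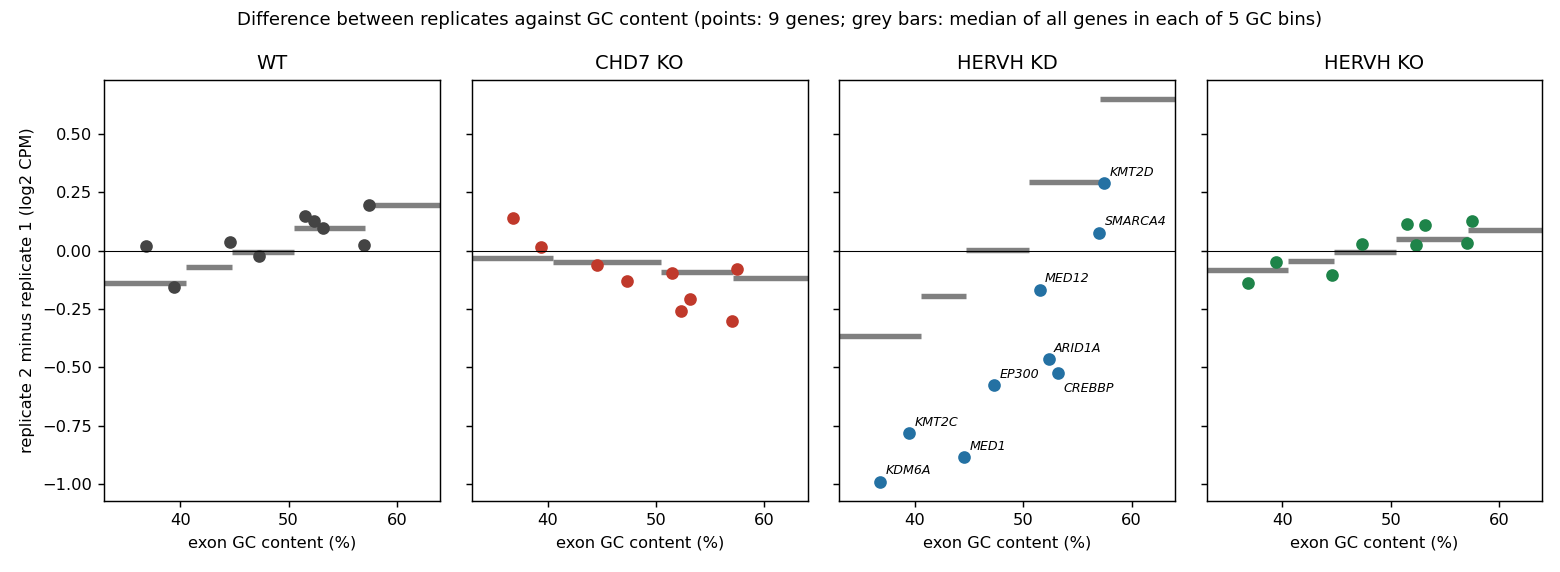
Difference between replicate 2 and replicate 1 in log2 CPM (y axis) against exon GC content in percent (x axis) in each group, with a point for each coactivator gene and grey bars for the median of all genes in each of 5 bins of GC content. In HERVH KD the 9 points rise from -0.99 (KDM6A) to 0.29 (KMT2D) and lie below the bars of their bins, whereas in the other groups they stay between -0.30 and 0.19.

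The calls between HERVH KD and WT depended on which HERVH KD replicate was kept. Without HERVH KD replicate 1, KMT2C (log2 fold change -0.77, FDR = 0.000529), MED1 (-0.79, FDR = 0.000579) and KDM6A (-0.65, FDR = 0.00368) passed an FDR of 0.05 against WT, a count of 3 of 9 in place of 0. In the same fit 15.8% of all genes passed, against 2.15% with both replicates. Without replicate 2, 0 of the 9 and 7.85% of all genes passed, and the same genes were at 0.05, 0.13 and 0.39. In these fits the remaining HERVH KD library is assumed to vary as the other groups do. A lower level of KMT2C, MED1 and KDM6A was therefore a property of HERVH KD replicate 2 and was not shared by replicate 1.

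The genes whose values over the 8 libraries were most like those of EP300, KMT2C and KMT2D were found from the root mean square difference of log2 CPM, each gene centred on its mean, among 10903 genes with a mean log2 CPM above 3. For EP300 they were STIL, ZC3H14 and AFF4, at 0.0326, 0.0408 and 0.0478, where the median over all genes was 0.274. For KMT2C they were CLOCK, ABRAXAS1 and TNRC6A, at 0.0450, 0.0489 and 0.0656, with a median over all genes of 0.376, and for KMT2D they were PSMG4, DCUN1D2 and ARFIP2, at 0.0429, 0.0443 and 0.0463, with a median of 0.249. The 8 libraries include the HERVH KD replicates, and all these genes share them.

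Other genes were taken from a list of 89, of which 88 were matched to a row and 86 passed the filter on low counts. The list held subunits of the complexes of the 9 genes and partners of p300 and CBP. It also held genes outside those complexes: other H3K4 methyltransferase complexes, H3K4 demethylases, and genes of H3K27 methylation and demethylation. For short, all are called the other genes of the complexes. In CHD7 KO 2 of 86 were higher at an FDR below 0.05 and 0 lower, where 1.19% and 0.613% of all genes were. In HERVH KD 2 of 86 were higher and 0 lower, where the shares of all genes were 0.618% and 1.53%. In HERVH KO 0 were higher and 0 lower, where the shares were 0% and 0.0724%, and 1 of 86 had an unadjusted p below 0.05 in that edgeR fit. The medians of the 86 log2 fold changes were -0.04, -0.02 and 0.03. Between HERVH KD and CHD7 KO 8 of the 86 passed an FDR of 0.05, or 9.30%, close to the 9.44% of all genes.

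In CHD7 KO the genes that rose were KDM5B, a demethylase of H3K4, and RBBP5, a core subunit shared by the H3K4 methyltransferase complexes. KDM5B was at 599 and 605 CPM in WT and 997 and 1046 CPM in CHD7 KO, against 567 to 611 CPM in the other groups. Its log2 fold change was 0.76 (SE 0.13, FDR = 0.00821), and it was lower in HERVH KD and HERVH KO than in CHD7 KO in the direct comparisons as well (FDR = 0.00262 and 0.00429). The difference from HERVH KO did not pass without CHD7 KO replicate 2 (FDR = 0.0625), HERVH KO replicate 1 (FDR = 0.141) or HERVH KO replicate 2 (FDR = 0.123). RBBP5 was at 81.4 and 80.8 CPM in WT and 140 and 134 CPM in CHD7 KO, with a log2 fold change of 0.76 (SE 0.18, FDR = 0.0444). When any 1 of the WT or CHD7 KO libraries was left out, the FDR of KDM5B was between 0.0757 and 0.111 and that of RBBP5 between 0.224 and 0.351, while the log2 fold changes stayed between 0.73 and 0.81. RBBP5 did not pass without either HERVH KO library (FDR = 0.0982 and 0.101). Both genes lie on chromosome 1, and their neighbours moved with them. The median log2 fold change of the 35 other expressed genes within 2 Mb of KDM5B was 0.64 and that of the 30 within 2 Mb of RBBP5 was 0.67, whereas the same median near each of the 9 coactivator genes was between -0.14 and 0.05 in CHD7 KO. The part of the neighbourhood in the values of KDM5B and RBBP5 was not tested. The other 5 tested subunits of the KMT2C/KMT2D complex on the list did not pass.

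In HERVH KD the genes that rose were SETD1B, a methyltransferase of the SET1 family that acts on H3K4 in another complex, and DPF1, a subunit of the neuronal form of the BAF complex. SETD1B was at 60.1 and 64.5 CPM in WT and 100.5 and 106 CPM in HERVH KD, with a log2 fold change of 0.73 (SE 0.15, FDR = 0.0303). DPF1 was at 8.27 and 14.4 CPM in WT and 27.8 and 29.4 CPM in HERVH KD, with a log2 fold change of 1.34 (SE 0.29, FDR = 0.0309). The replicates of HERVH KD were close for both genes, unlike those of most coactivator genes. Both genes are in the highest bin of exon GC content (61.4% and 60.8%). In that bin the median difference of all genes between the HERVH KD replicates was 0.65 on the log2 scale. In a fit of the 4 compared libraries alone neither passed (FDR = 0.193 and 0.0853). Without WT replicate 1 neither passed (FDR = 0.368 and 0.377), and SETD1B did not pass either without any 1 of the WT, CHD7 KO or HERVH KO libraries.

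By complex, the 31 tested Mediator genes beside MED1 and MED12 gave 0 calls in each comparison with WT, with median log2 fold changes of -0.08 in CHD7 KO, 0.00 in HERVH KD and -0.02 in HERVH KO. The 25 tested SWI/SNF genes beside SMARCA4 and ARID1A gave 1 call in all, DPF1, with medians of -0.07, -0.10 and 0.04. The 7 partners of p300 and CBP gave 0 calls, with medians of -0.13, -0.06 and 0.08. Over all genes tested 1.81%, 2.15% and 0.0724% were called in these comparisons, so counts this low do not set the complexes apart. The remaining paralogs had small mean changes against WT. ARID1B had log2 fold changes of -0.07, -0.02 and 0.06 in CHD7 KO, HERVH KD and HERVH KO, KMT2A had 0.11, -0.03 and 0.07, KDM6B had -0.16, -0.18 and -0.24, and MED12L had -0.18, -0.25 and 0.01, and none of these passed an FDR of 0.05. In HERVH KD the replicates of KMT2A (534 and 364 CPM) and of ARID1B (248 and 172 CPM) lay on opposite sides of both WT libraries. Their values near 0 are thus means of opposite deviations. KMT2B was listed at 0 counts in all 8 libraries. The reason was not tested and the 0 is not read as absence of its RNA, so no level is given for it.

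**Figure D5:**
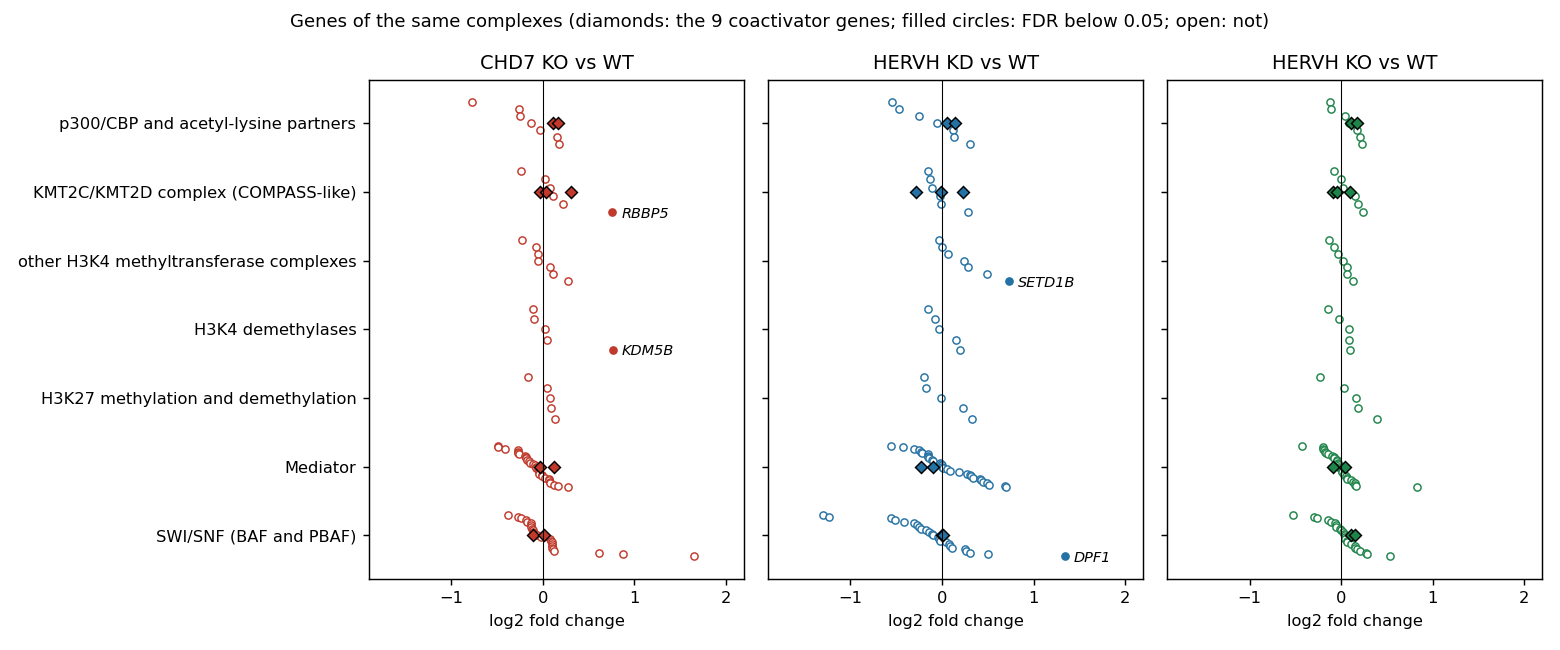
Log2 fold change against WT (x axis) of the tested genes of each complex or other listed set (rows) in CHD7 KO, HERVH KD and HERVH KO. Filled circles are genes with an FDR below 0.05 (RBBP5 and KDM5B, SETD1B and DPF1, and none in HERVH KO), open circles are genes that did not pass, and diamonds are the 9 coactivator genes, none of which passed and which lie between -0.28 and 0.31.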

How the data were processed

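RNA-seq of H9 hESCs gave 8 libraries, 2 in each of 4 groups taken from the labels. Library preparation removed rRNA and kept the strand. Alignment by the authors used STAR and hg19, and HTSeq-count gave the number of reads on each Ensembl gene. The deposited values are raw counts per gene. Versions and the strand setting of the counting are not given in the sources used here. Reads outside genes (34.9% to 42.5%) and ambiguous reads (3.81% to 4.75%) were left out.

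Here, counts were scaled by TMM and filtered with filterByExpr in edgeR 4.0.16 (R 4.3.3, limma 3.58.1), and all 8 libraries were fitted together by the quasi-likelihood test with group as the factor and 4 residual degrees of freedom. Alternatives were DESeq2 1.42.0, RLE scaling, no filter, fits of 4 libraries, the replicate number as a block, a loess correction for GC content and each library left out. log2 CPM used a prior count of 2. Lengths, GC content and positions came from GENCODE on GRCh37, which placed 55538 of 57773 genes. Counting error alone limits the floor of 3 counts.

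The members and lists were chosen with earlier results of these data known. Named were the 9 members, other listed genes with an FDR below 0.05 against WT, fixed paralogs, CHD7 and the 3 genes most like EP300, KMT2C and KMT2D.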

Additional observations from a re-analysis of the deposited data

Results flagged for a closer look

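The differences below are all those among the 9 coactivator genes and the 86 other listed genes for which a test between 2 perturbed groups passed an FDR of 0.05 (edgeR's quasi-likelihood test), and none of them is one of the 9. KDM5B was higher in CHD7 KO than in HERVH KO by 0.79 on the log2 scale (SE 0.13, FDR = 0.00429), which passed in 5 of 8 fits with 1 library left out. Between HERVH KD and CHD7 KO 8 of 86 genes passed, a share of 9.30% beside 9.44% of all genes. One of them, BRD7, had a log2 fold change of 0.87 in CHD7 KO against WT. The median of the 8 other expressed genes within 2 Mb of it was 0.27, against -0.14 to 0.05 near the 9 coactivator genes. The part of this neighbourhood in the value of BRD7 was not tested. With HERVH KD minus CHD7 KO as the direction, the log2 fold change was -0.80 for KDM5B (SE 0.13, FDR = 0.00262), -1.84 for SMARCA2 (SE 0.32, FDR = 0.00340) and -1.15 for BRD7 (SE 0.21, FDR = 0.00491), and these calls held in 8 of 8 fits with 1 library left out and in the fit of the 4 compared libraries.

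The other 5 calls depended on single libraries. RBBP5, at -0.87 (SE 0.18, FDR = 0.00885), did not pass without CHD7 KO replicate 1 (FDR = 0.0720) or replicate 2 (FDR = 0.0617), nor in the fit of 4 libraries (FDR = 0.0571). DPF1, at 1.22 (SE 0.29, FDR = 0.0175), was at 0.88 without CHD7 KO replicate 2 and did not pass (FDR = 0.217). NCOA2, at -0.70 (SE 0.19, FDR = 0.0328), passed in 3 of 8 such fits, BRD9, at 0.77 (SE 0.20, FDR = 0.0318), in 4 of 8 and MED18, at 0.93 (SE 0.26, FDR = 0.0399), in 1 of 8. Each of these 3 did not pass without CHD7 KO replicate 1 or replicate 2, with FDRs up to 0.154, 0.196 and 0.259, nor in the fit of 4 libraries. With 2 libraries in a group, no test for outlying libraries was made.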

How the results depend on the processing

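Of the 9 coactivator genes, 0 passed an FDR of 0.05 against WT under RLE scaling, DESeq2's Wald test, no filter on low counts, fits of the 4 compared libraries, the replicate block or the GC correction. Between HERVH KD and CHD7 KO the count of 0 became 1 (KMT2C) without the filter, with the GC correction, with the replicate block (FDR = 0.0447) and with the block and the GC correction together (FDR = 0.0353), and the cause was not tested. Over all genes, the 2217 of 23474 that passed there became 2401 with the block, 3732 with the GC correction and 3517 with both. Without the filter 3325 of 42395 passed. Of the other genes of the complexes, 2 in HERVH KD became 5 without the filter and 0 in the fit of 4 libraries. They became 6 with the GC correction and 5 with the block and the GC correction. The calls over all genes moved as well, from 504 of 23474 to 1499 of 42395 without the filter and 57 of 21658 in the fit of 4 libraries. They were 2034 of 23474 with the GC correction and 1923 with the block and the GC correction. SMARCA2 in HERVH KD passed an FDR of 0.05 under DESeq2, without the filter, with the block and with the GC correction, and its log2 fold change stayed between -1.25 and -1.16.

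With each library left out in turn, the count of coactivator genes with an FDR below 0.05 ranged from 0 to 3 in HERVH KD against WT, from 0 to 5 between HERVH KD and HERVH KO and from 0 to 4 between HERVH KD and CHD7 KO, each highest without HERVH KD replicate 1, where 15.8%, 19.5% and 23.4% of all genes passed. A lone library is assumed in these fits to vary like the other groups, and the cause of the higher counts was not tested. That of the other genes of the complexes ranged from 0 to 4 in CHD7 KO, highest without HERVH KD replicate 2, and from 0 to 28 in HERVH KD, highest without HERVH KD replicate 1 (28 of 86, beside 15.8% of all genes) and 0 without WT replicate 1.

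Values that were not called in the main fit changed sign. Many stayed near 0, but in HERVH KD some were far from 0 when HERVH KD replicate 1 was left out. With a library left out, log2 fold changes in CHD7 KO ran from -0.03 to 0.14 (KMT2D), -0.08 to 0.04 (KDM6A), -0.06 to 0.02 (MED1), -0.26 to 0.06 (SMARCA4), -0.12 to 0.16 (ARID1A) and -0.15 to 0.05 (ARID1B). In HERVH KD they ran from -0.31 to 0.31 (EP300), -0.19 to 0.37 (CREBBP), -0.77 to 0.05 (KMT2C), -0.65 to 0.39 (KDM6A), -0.79 to 0.13 (MED1), -0.05 to 0.01 (SMARCA4), -0.29 to 0.22 (ARID1A), -0.35 to 0.21 (ARID1B) and -0.39 to 0.21 (KMT2A), and in HERVH KO from -0.12 to 0.05 (KMT2D) and -0.09 to 0.13 (MED12L). With the GC correction, alone and with the block, HERVH KD gave 0.11 and 0.10 for KDM6A, -0.0023 and -0.03 for ARID1A, 0.05 and 0.05 for ARID1B and 0.03 and 0.03 for KMT2A, HERVH KO gave 0.08 and 0.08 for KMT2D and -0.03 and -0.03 for MED12L, and CHD7 KO gave 0.0016 for KDM6B with both. In the fit of 4 libraries ARID1A was at -0.0039 in HERVH KD.

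Replicate numbers are shared by the groups, but same-numbered libraries did not deviate together throughout: the correlation of their deviations was 0.35 for WT and HERVH KD and 0.51 for WT and HERVH KO, but -0.28 for WT and CHD7 KO, so the numbers were not taken as pairs. The block moved the calls over all genes at an FDR below 0.05 from 424 to 471 in CHD7 KO, 504 to 639 in HERVH KD and 17 to 16 in HERVH KO. With the CHD7 KO numbers crossed, chosen after seeing the data, these counts were 714, 1383 and 18, those of other genes of the complexes in HERVH KD 4, and those of the 9 genes between HERVH KD and CHD7 KO 1. In that last comparison 3434 of all 23474 genes passed.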
